A study of Mus musculus with 20 samples.

Results

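The renin-angiotensin system is represented here by 7 genes of the 55866 in the count table, taken by their symbols: Ace, Agt, Agtr1a, Enpep, Anpep, Mme and Lnpep. Of these, Ace, Enpep, Anpep, Mme and Lnpep encode membrane-bound peptidases, whereas Agt encodes the substrate of the system and Agtr1a a receptor. The symbols matched 1 row each, and all 7 genes passed the filter on low counts when the 20 libraries were tested together.

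Angiotensinogen (Agt) is cut by renin to angiotensin I, from which angiotensin-converting enzyme (Ace) removes the C-terminal dipeptide to yield angiotensin II, the peptide that acts on the type 1 receptor (Agtr1a) to contract vessels. Ace also inactivates bradykinin and sits on the luminal face of endothelial cells. Aminopeptidase A (Enpep) and aminopeptidase N (Anpep, also known as CD13) then trim angiotensin II from its N-terminus, neprilysin (Mme, CD10) cleaves angiotensin peptides internally, and the insulin-regulated aminopeptidase (Lnpep) binds and cleaves the shorter angiotensin IV. Enpep is a known marker of pericytes, and Anpep is found on myeloid cells, fibroblasts and pericytes as well as on vessels.

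The data came from Py8119 mammary tumors, a mouse breast carcinoma line implanted in a fat pad of the mammary gland of C57BL/6J females that carried the RiboTag allele Rpl22HA/HA and Cdh5CreERT2. In both treatment groups, 75 mg/kg of tamoxifen was given for 5 days at 3 weeks of age to switch on the hemagglutinin (HA)-tagged ribosomal protein Rpl22 in cells with an active Cdh5 promoter, tumor cells were implanted at 8 weeks, and 25 mg/kg of the anti-Notch4 antibody 6-3-A6 or of control mouse IgG was injected until harvest after 10 days. Each of 10 tumors, 5 per treatment, gave a library from the homogenate (input) and a library from the anti-HA immunoprecipitate (IP), which is meant to hold the ribosome-bound mRNA of endothelial cells. The starting tumor volume is 30 mm3 in the protocols and 50 mm3 in the design text, and the age field of the labels reads 3 weeks.

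The libraries held 11881214 to 26728205 counts on genes, with a median of 16942643. For the 6-3-A6 tumors the titles and the description field disagreed on which libraries were IP, and the titles were followed. In libraries titled IP, 17 of 17 endothelial markers were called higher than in input (median log2 difference 4.26), and their summed level, in counts scaled to library size (CPM), was 223 to 352 in input and 1242 to 7415 in IP. Of the IP libraries, control IgG IP library 4 (1624 CPM) and 6-3-A6 IP library 2 (1242 CPM) were the lowest, and the other 8 held 2992 to 7415 CPM. The 13 macrophage markers summed to 3274 to 9192 CPM in IP and 6406 to 15259 CPM in input, with Itgam listed at 0 throughout, so RNA of other cells was also measured in IP. In 6-3-A6 input library 4, 38.2% of counts were mitochondrial, against 0.758% to 17.2% in the 19 others.

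Levels are given as CPM scaled by TMM factors, with the mean ± SD over the 5 libraries of a group. A gene is called when its Benjamini-Hochberg adjusted p in edgeR's quasi-likelihood test is under 0.05 over all genes tested. Differences are fitted log2 differences, and in bulk libraries fewer cells of a type and less RNA per cell cannot be told apart.

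In whole tumors and in IP, the aminopeptidases Anpep and Lnpep were the most abundant of the 7 genes, and Enpep and Agtr1a the least. Per kilobase of exon outside other genes, Anpep averaged 38.1 ± 6.10 CPM in control IgG input, above Lnpep at 12.0 ± 5.28 with no overlap between libraries (n = 5). Lnpep, Mme (5.71 ± 1.83), Agt (3.54 ± 2.39) and Ace (1.58 ± 0.33) followed in that order, and neighbours in it overlapped. Enpep (0.306 ± 0.0753) and Agtr1a (0.276 ± 0.128) overlapped with each other and lay below Ace. In control IgG IP the order on the same scale differed in the place of Ace, which took the third place at 5.39 ± 2.06, below Lnpep at 11.5 ± 2.80 without overlap and overlapping with Mme at 3.35 ± 1.65. The 6-3-A6 tumors had the same leading genes, with Anpep at 28.9 ± 6.38 in input and 17.2 ± 6.39 in IP per kilobase. There Anpep and Lnpep (10.8 ± 2.91) overlapped in IP. This order depends on the division by exon length, although introns were counted, and in plain CPM mean Lnpep was above mean Anpep in all 4 groups (170 against 157 in control IgG input) and mean Ace was below mean Mme in control IgG IP (9.60 against 38.7).

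**Figure D1:**
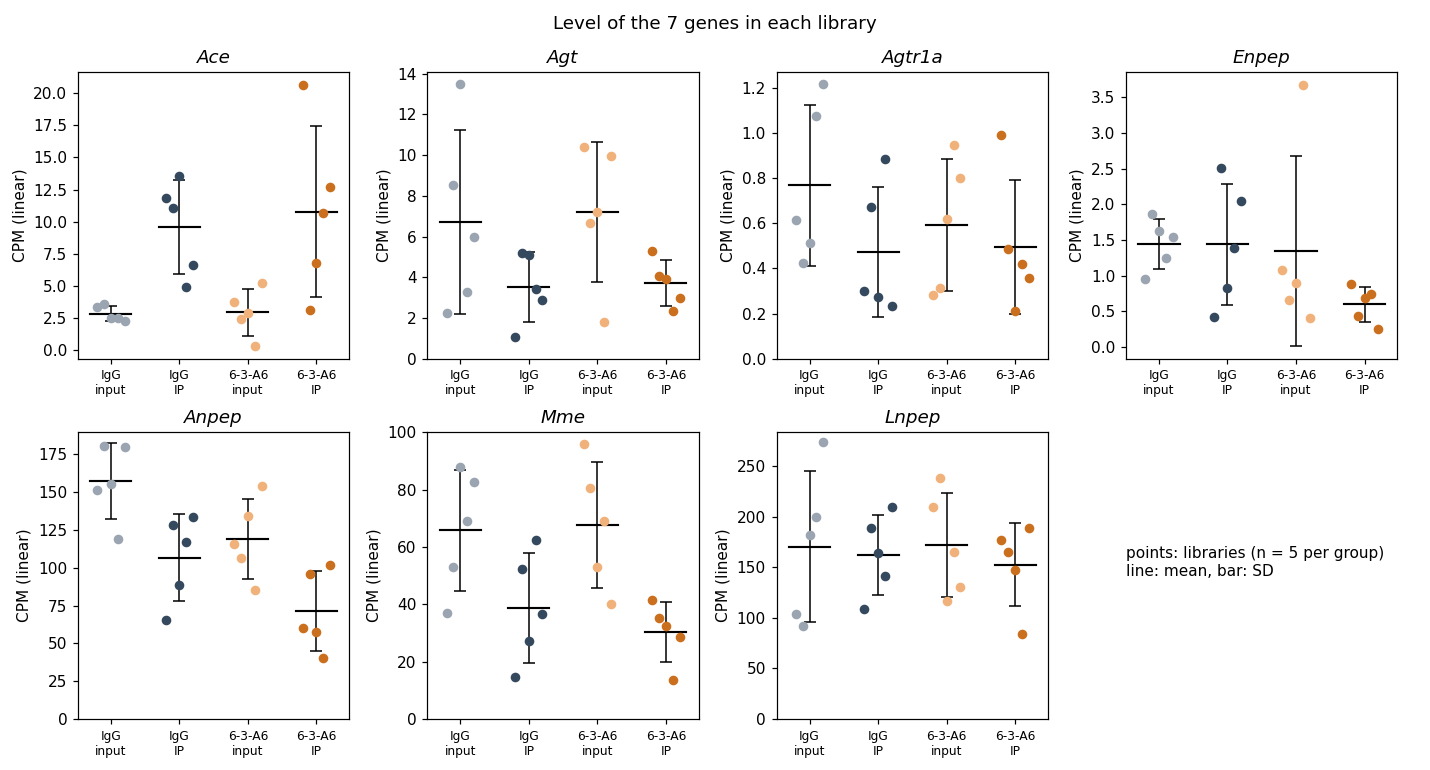
Level of each gene in CPM (linear axis, scale set per panel) in the input and IP libraries of control IgG and 6-3-A6 tumors. Points are libraries (n = 5 per group), lines are means and bars are SD. Ace was higher in IP than in input, Anpep and Mme were lower in IP, and Lnpep was near the same level in all groups (means of 153 to 172 CPM).

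The first comparison was IP against input, which asks how far each transcript followed the tagged endothelial ribosomes. Ace was the only one of the 7 genes called higher in IP, by 3.53-fold, and the substrate Agt, aminopeptidase N (Anpep) and neprilysin (Mme) were called lower, by 1.91-, 1.57- and 1.95-fold. Agtr1a, Enpep and Lnpep were not called. Over 14488 genes tested in the 20 libraries, 40.4% were called, 19.6% higher and 20.8% lower, so that 4 calls among 7 genes stood not far above the background. The median log2 difference of the 7 genes was -0.52, against -0.06 over all genes tested.

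Ace lies on chromosome 11 (GRCm39, 11:105858771-105880790, plus strand). The antisense gene Gm11651 overlaps 80.6% of its span, and reads in overlaps were not counted. In GENCODE M21, an annotation on an earlier build, 33.7% of its exonic bases lay outside other genes. The control IgG input libraries 1 to 5 held 3.34, 3.55, 2.47, 2.49 and 2.24 CPM of Ace, and the IP libraries of the same tumors held 11.9, 11.1, 13.6, 4.91 and 6.59 CPM. Every IP library lay above every input library in this group, as did 8.63% of all genes tested.

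In the 6-3-A6 tumors, Ace was at 3.74, 2.43, 2.87, 0.315 and 5.21 CPM in input libraries 1 to 5 and at 20.7, 3.10, 6.74, 10.7 and 12.7 CPM in IP. The groups overlapped here because IP library 2, the library with the lowest endothelial sum, lay under input libraries 1 and 5. The value of 0.315 CPM in input library 4 rests on 3 counts. Ace was higher in IP than in the input of the same tumor in 10 of 10 tumors, by 0.34 to 4.66 on the log2 scale.

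The fitted log2 difference of Ace over the 20 libraries was 1.82 (SE 0.33, adjusted p = 1.95e-04). It was 1.77 in the control IgG tumors (SE 0.48, adjusted p = 0.0188) and 1.87 in the 6-3-A6 tumors (SE 0.48, adjusted p = 0.00711). The test of the difference between these values gave 0.11 (95% interval -1.27 to 1.49, adjusted p = 1.00). Without control IgG IP library 3 the call in control IgG tumors was lost (1.61, adjusted p = 0.0556), as it was in the tumors of the 6 IP libraries that the study retained (1.46, adjusted p = 0.261). An alternative chosen after seeing the data left out the 3 libraries that stand apart (control IgG IP library 4, 6-3-A6 IP library 2 and 6-3-A6 input library 4). The difference over the remaining libraries was 1.92 (adjusted p = 9.65e-07).

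Ace in IP was lowest in the 2 libraries with the lowest endothelial markers. Its log2 CPM was 1.68 and 2.33 there and 2.75 to 4.38 in the 8 others. Of these, 6-3-A6 IP library 3 and control IgG IP library 5 held similar Ace (2.78 and 2.75), with marker means of 7.70 and 6.80. Set against the mean log2 CPM of the 17 markers, Ace stood at -4.14 ± 0.35 in control IgG IP and at -4.18 ± 0.52 in 6-3-A6 IP (SD, n = 5 each). The difference of -0.04 was smaller than either SD (exact permutation test over libraries, two-sided, p = 0.929, where the smallest p possible is 0.00794). With Pecam1 or Cdh5 alone as the reference the difference was 0.12 (exact permutation p = 0.690) or 0.08 (exact permutation p = 0.706). The log2 difference of Ace between IP and input, 1.82, was below the median of 4.26 of the markers, and no test of this difference was made.

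**Figure D2:**
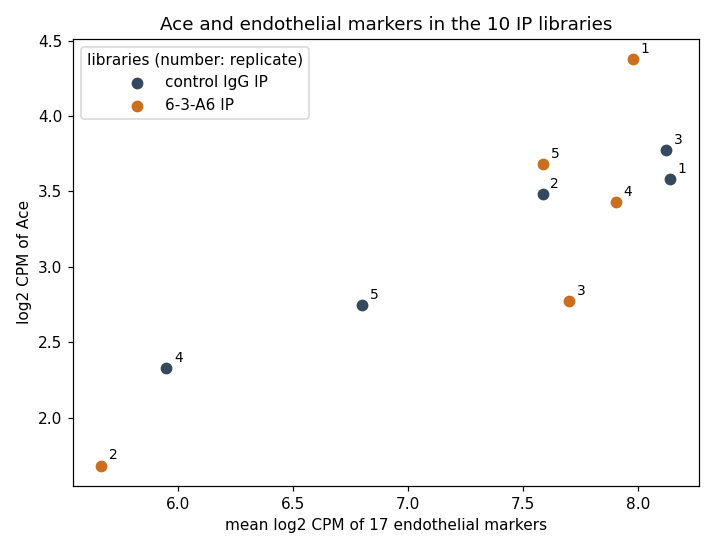
Log2 CPM of Ace against the mean log2 CPM of 17 endothelial markers in the 10 IP libraries, labelled by replicate number, for control IgG (dark) and 6-3-A6 (orange). Ace was lowest in the 2 libraries with the lowest markers, 6-3-A6 IP library 2 and control IgG IP library 4, and the treatment groups were interspersed.

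Agt (8:125283273-125296445, minus strand, overlapped by no other gene) was lower in IP. In control IgG tumors 1 to 5 it was at 2.23, 8.55, 13.5, 3.28 and 5.96 CPM in input and at 1.08, 5.19, 5.10, 3.40 and 2.86 CPM in IP. In 6-3-A6 tumors the input held 10.4, 6.68, 7.20, 1.78 and 9.95 CPM and IP held 5.31, 4.07, 3.90, 2.37 and 2.97 CPM. The groups overlapped, and input varied more between tumors than IP did, with SDs of 4.51 and 3.45 CPM in input against 1.71 and 1.13 CPM in IP.

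Within tumors Agt was lower in IP in 8 of 10, and the fitted log2 difference was -0.93 (SE 0.33, adjusted p = 0.0273). This call was lost without control IgG input library 3 (-0.74, adjusted p = 0.0734), without 6-3-A6 input library 1 (-0.85, adjusted p = 0.0532) and in the tumors of the 6 IP libraries that the study retained (-0.69, adjusted p = 0.180). With the tumor as a block the difference was -0.84, called in both control IgG tumors (adjusted p = 0.0416) and 6-3-A6 tumors (adjusted p = 0.0274), where the fit without the block called neither (adjusted p = 0.229 and 0.136).

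The receptor gene Agtr1a (13:30520424-30566850, plus strand) was near the limit of detection, with 5 to 19 counts per library. Its levels ranged from 0.212 to 1.22 CPM, all groups overlapped, and the log2 difference between IP and input was -0.48 (95% interval -1.19 to 0.24, adjusted p = 0.278). A change of the size seen for Ace lay outside this interval.

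Anpep (7:79471551-79510807, minus strand) was lower in IP in 10 of 10 tumors. Control IgG input libraries 1 to 5 held 152, 180, 156, 119 and 180 CPM, and the IP libraries held 65.8, 128, 88.6, 117 and 133 CPM. In the 6-3-A6 tumors the values were 116, 107, 135, 85.2 and 154 CPM in input and 60.3, 95.6, 57.7, 40.4 and 102 CPM in IP. Within each treatment the IP and input libraries overlapped, and 6-3-A6 IP libraries 1, 3 and 4 were the lowest of all 20.

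The fitted log2 difference of Anpep between IP and input was -0.65 (SE 0.17, adjusted p = 0.00408). It was -0.75 without the 3 libraries that stand apart (adjusted p = 0.00249), an alternative chosen after seeing the data. By treatment it was -0.56 in control IgG tumors (adjusted p = 0.141) and -0.75 in 6-3-A6 tumors (adjusted p = 0.0279), and the difference between the treatments was -0.18 (95% interval -0.89 to 0.53, adjusted p = 1.00). With the tumor as a block the control IgG tumors also passed (-0.59, adjusted p = 0.0325). Leaving out 6-3-A6 input library 3 or 5 or 6-3-A6 IP library 1, 3 or 4 ended the call in 6-3-A6 tumors, with adjusted p-values of 0.0581 to 0.0811, as did testing without the filter on low counts (-0.68, adjusted p = 0.0675).

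Neprilysin (Mme, 3:63148958-63293451, plus strand) was, with Agt, the gene farthest below its input level in IP. The control IgG tumors 1 to 5 held 37.0, 52.9, 87.8, 69.0 and 82.7 CPM in input and 14.8, 52.1, 27.2, 62.6 and 36.8 CPM in IP. The 6-3-A6 tumors held 95.9, 80.4, 53.1, 69.2 and 40.3 CPM in input and 41.5, 35.1, 32.6, 13.7 and 28.7 CPM in IP. Mme was lower in IP in all 10 tumors, by as little as 0.02 and as much as 2.33 on the log2 scale, and libraries of the groups overlapped.

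Its fitted log2 difference was -0.96 (SE 0.24, adjusted p = 0.00345). In the 6-3-A6 tumors it was -1.16 (adjusted p = 0.0177), and this call was lost without 6-3-A6 input library 1 (adjusted p = 0.0510) or 6-3-A6 IP library 4 (adjusted p = 0.0518). In control IgG tumors the value was -0.77 (adjusted p = 0.158), and -0.87 with the tumor as a block (adjusted p = 0.0387). The block thus raised the number of the 7 genes called in control IgG tumors from 1 to 4, while the genes called in all rose from 1647 (11.4%) to 3249. In the tumors of the retained IP libraries, edgeR called 0 of the 7 with control IgG, where 607 of 14707 genes tested were called, and the log2 difference of Ace was 1.46 there. With all libraries and no block, 3 of the 7 genes were called in the 6-3-A6 tumors, where 26.3% of all genes were.

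Some markers of several other cell types were also called lower in IP, as were 20.8% of all genes tested. None of 8 mast cell and 7 adipocyte markers was called lower (median log2 differences -0.45 and -0.57). Of 4 basal and myoepithelial markers 1 was called lower (median 0.02). Of 12 macrophage markers tested, 8 were called lower (median log2 difference -0.71), as were 5 of 12 fibroblast markers (median -0.55) and 2 of 6 epithelial markers (median -0.45). Of 6 lymphoid markers 3 were called lower (median -1.0), and of 6 neutrophil markers 2 (median -1.19). Anpep and Mme moved by amounts of this order, and the part of these cells in the result was not tested. Of the 12 mural markers, 3 were called higher and 2 lower (median -0.07). Their summed level was higher in IP, at 405 to 1827 CPM against 172 to 314 CPM in input with control IgG. With 6-3-A6 it was 316 to 1012 CPM in IP against 172 to 198 CPM in input.

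Enpep (3:129062824-129126369, minus strand) was scarce, with 5 to 56 counts per library. The control IgG tumors 1 to 5 held 0.946, 1.86, 1.62, 1.24 and 1.54 CPM in input and 0.422, 2.50, 0.823, 1.39 and 2.04 CPM in IP. In the 6-3-A6 tumors input was at 1.08, 0.661, 0.900, 3.67 and 0.401 CPM and IP at 0.875, 0.426, 0.678, 0.737 and 0.256 CPM. The fractions overlapped in both treatments, although IP was below the input of the same tumor in 5 of 5 6-3-A6 tumors and in 2 of 5 control IgG tumors.

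For Enpep, the log2 difference between IP and input was -0.52 (95% interval -1.32 to 0.28, adjusted p = 0.286). It was 0.01 in control IgG tumors and -1.11 in 6-3-A6 tumors (adjusted p = 0.130), and the test of the difference between them did not pass (-1.13, 95% interval -2.68 to 0.42, adjusted p = 1.00). Without 6-3-A6 input library 4, in which Enpep was highest, the value in 6-3-A6 tumors was -0.34 (adjusted p = 0.613).

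Lnpep (17:17741672-17845312, minus strand) was at similar levels in both fractions. It ranged from 91.5 to 274 CPM in input and from 84.1 to 209 CPM in IP, was lower in IP in 6 of 10 tumors, and had a log2 difference of -0.12 (95% interval -0.53 to 0.29, adjusted p = 0.647).

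**Figure D3:**
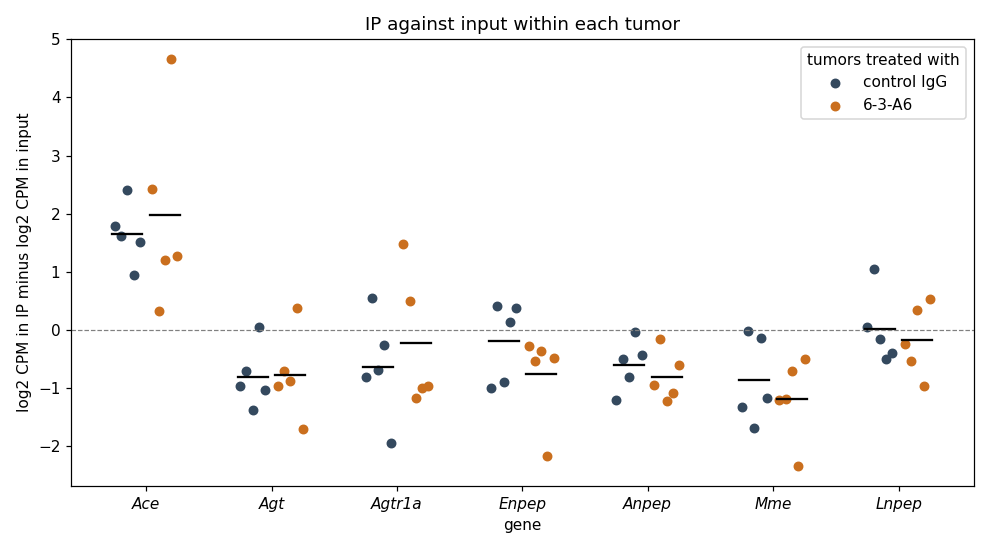
Log2 CPM in IP minus log2 CPM in input within each tumor, for control IgG (dark) and 6-3-A6 (orange) tumors, with group means as lines (n = 5 tumors per treatment). Ace was above 0 in 10 of 10 tumors, Anpep and Mme were below 0 in 10 of 10, and Agt in 8 of 10. The highest Ace value, 4.66, came from 6-3-A6 tumor 4, whose input library held 3 counts of Ace.

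The other genes of the system placed Ace in context. Renin (Ren1) had 3 counts in all 20 libraries together, the type 2 receptor Agtr2 had 2, kininogen (Kng1) had 18 and the second type 1 receptor gene Agtr1b had 43. The receptor gene Mas1 had 22 counts, but 70.8% of its span is overlapped by other genes. Of 25 other renin-angiotensin and kallikrein-kinin genes listed, 16 were tested, and 2 were called higher and 2 lower in IP (median log2 difference 0.05). Over all genes tested in this comparison, 19.6% were called higher and 20.8% lower.

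The 2 higher genes encode soluble peptidases, prolyl oligopeptidase (Prep, 0.49, adjusted p = 0.00699) and aminopeptidase B (Rnpep, 0.98, adjusted p = 4.20e-04). The 2 lower genes were cathepsin D (Ctsd, -0.94, adjusted p = 0.00973), a lysosomal protease abundant in macrophages, and the inducible bradykinin receptor Bdkrb1 (-0.90, adjusted p = 0.0277). Another gene overlaps 55.7% of the span of Ctsd and 17.5% of that of Rnpep. Agtrap, which encodes a protein that binds the type 1 receptor, just missed the threshold (-0.39, adjusted p = 0.0504).

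Among other members of the M1 aminopeptidase family, to which Enpep, Anpep and Lnpep belong, 7 of 8 were tested and 3 were called higher in IP: Rnpep, leukotriene A4 hydrolase (Lta4h, 0.79, adjusted p = 3.69e-05) and Rnpepl1 (0.58, adjusted p = 0.0288). None of these 7 was called lower by edgeR, where 19.6% of all genes tested were called higher and 20.8% lower. Of the neprilysin family (M13), 2 of 6 other members were tested. Endothelin-converting enzyme 1 (Ece1), which produces the vasoconstrictor endothelin, was higher in IP by 1.24 (SE 0.19, adjusted p = 2.88e-05), at 360 ± 119 CPM in control IgG IP against 163 ± 33.2 CPM in input (SD, n = 5). Phex was lower (-0.63, adjusted p = 0.0226), in the same direction as its relative Mme.

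**Figure D4:**
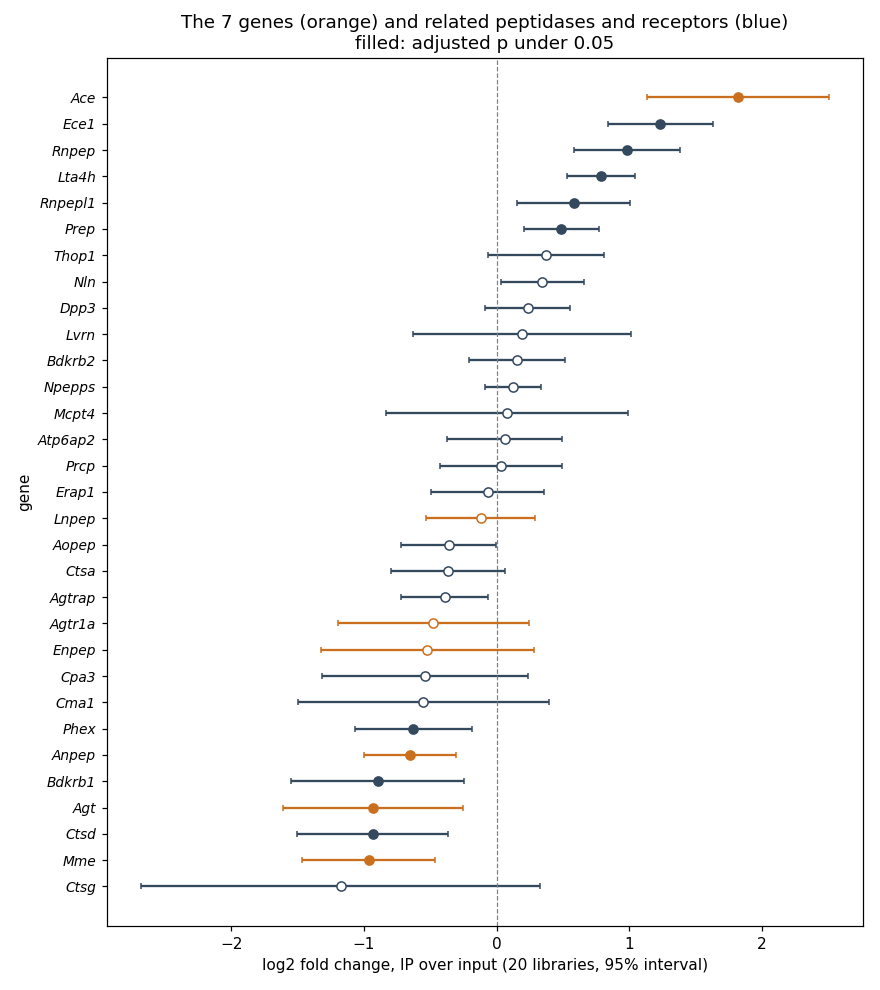
Log2 fold change of IP over input with 95% intervals over 20 libraries for the 7 genes (orange) and the tested members of the lists of other renin-angiotensin genes, M1 aminopeptidases and neprilysin family (blue). Filled points had an adjusted p under 0.05. Ace (1.82) stood at the top, next to Ece1 (1.24), and Mme (-0.96), Ctsd (-0.94) and Agt (-0.93) were the lowest of the filled points.

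The next comparison was 6-3-A6 against control IgG in the endothelial fraction, which asks what anti-Notch4 treatment changed in tumor endothelium. The study kept 3 IP libraries per treatment after leaving out others that lay apart in a principal component analysis, namely control IgG IP libraries 2, 4 and 5 and 6-3-A6 IP libraries 1, 3 and 4. In these 6 libraries, the only call among the 7 genes was a 2.44-fold lower Anpep with 6-3-A6. Over 13999 genes tested, 4.61% were called, 2.57% higher and 2.04% lower. The paper reports low resolution of the treatments in a first principal component analysis and clearer separation after removal of outliers. The p-values from the kept libraries are therefore not those of an unselected comparison.

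Anpep was at 128, 117 and 133 CPM in the kept control IgG libraries and at 60.3, 57.7 and 40.4 CPM in the kept 6-3-A6 libraries, a log2 difference of -1.29 (SE 0.21, adjusted p = 0.0178). The kept groups did not overlap, which was also the case, in the lower direction, for 10.7% of all genes tested. The libraries left out went the other way, at 65.8 and 88.6 CPM in control IgG and 95.6 and 102 CPM in 6-3-A6. With all 10 IP libraries the log2 difference of Anpep was -0.59 (95% interval -1.20 to 0.02), with an unadjusted p of 0.0558 and an adjusted p of 1.00 from edgeR.

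The call in the kept libraries was lost without 6-3-A6 IP library 3 (-1.35, adjusted p = 0.0602), a setting in which 9 genes in all were called instead of 646. Without control IgG IP library 4, the kept library with the low endothelial sum, the adjusted p of Anpep was 0.0366 and 188 genes were called. Over the alternatives its adjusted p ranged from 3.90e-06 to 0.0602.

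Enpep was at 2.50, 1.39 and 2.04 CPM in the kept control IgG libraries and at 0.875, 0.678 and 0.737 CPM in the kept 6-3-A6 libraries, which did not overlap. Its log2 difference of -1.41 (SE 0.37) did not pass (adjusted p = 0.0585). DESeq2 (adjusted p = 0.0244) and edgeR without the filter on low counts (adjusted p = 0.0274) did call it. Over all 10 IP libraries Enpep had a log2 difference of -1.30 (95% interval -2.34 to -0.26, unadjusted p = 0.0184, adjusted p = 1.00 from edgeR), with the 5 6-3-A6 libraries at 0.256 to 0.875 CPM and the 5 control IgG libraries at 0.422 to 2.50 CPM.

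Mme differed by -0.81 in the kept libraries (unadjusted p = 0.0406, adjusted p = 0.229 from edgeR) and passed only without the filter on low counts (adjusted p = 0.0133). Ace was at 11.1, 4.91 and 6.59 CPM in kept control IgG and 20.7, 6.74 and 10.7 CPM in kept 6-3-A6 libraries, which overlapped (0.72, 95% interval -0.18 to 1.61, adjusted p = 0.371). The log2 difference was 0.18 without 6-3-A6 IP library 1 and 1.14 without control IgG IP library 2. Set against the endothelial markers, the kept libraries differed the other way, by -0.41 (two-sided exact permutation p = 0.5, smallest possible 0.1). Lnpep (-0.43), Agtr1a (-0.16) and Agt (-0.01) had adjusted p-values of 0.443, 0.926 and 0.987.

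Some marker lists differed between the kept groups as well. With 6-3-A6, 6 of 12 macrophage markers tested were called lower (median log2 difference -0.98), 2 of 12 fibroblast and 2 of 6 epithelial markers were called lower (medians -0.68 and -0.83), and 3 of 17 endothelial markers were called higher (median 0.84), against a median of -0.05 over all genes. Of 11 mural markers tested, which include those of pericytes, 1 was called higher and 1 lower (median -0.56). None of the 7 adipocyte and 4 basal and myoepithelial markers tested was called by edgeR, with medians of -1.11 and -0.98. Nor was any of the 5 neutrophil, 8 mast cell and 5 lymphoid markers tested, with medians of -0.07, -0.29 and -0.60. The summed macrophage markers were at 7641, 7731 and 6665 CPM in kept control IgG and at 3968, 3640 and 3274 CPM in kept 6-3-A6 libraries. In the libraries left out they were at 5773 and 4667 CPM with control IgG and at 4065 and 9192 CPM with 6-3-A6. The summed endothelial markers were at 5287, 1624 and 2992 CPM in kept control IgG and at 6688, 5135 and 6014 CPM in kept 6-3-A6 libraries. In the libraries left out the endothelial sums were 7292 and 7415 CPM with control IgG and 1242 and 5240 CPM with 6-3-A6. Among the 13 macrophage markers, Itgam was listed at 0. The part of macrophages, endothelial cells and other cells in the values of Anpep, Enpep and Mme was not tested.

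From the wider lists, 2 genes were called in the kept libraries, both lower with 6-3-A6. These were Ctsd (-0.90, adjusted p = 0.0390) and the endoplasmic reticulum aminopeptidase Erap1 (-1.16, adjusted p = 0.0205), which trims peptides for antigen presentation. Of the 15 other renin-angiotensin genes, 6 other M1 aminopeptidases and 2 neprilysin family members tested, no other gene was called by edgeR.

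Over all 10 IP libraries, 0 of 13602 genes were called by edgeR or by DESeq2, with 292 and 359 genes at an unadjusted p under 0.05. Of the members not given above, Ace differed by 0.16 (95% interval -0.77 to 1.09), Mme by -0.36 (-1.16 to 0.43), Lnpep by -0.10 (-0.63 to 0.43) and Agt by 0.06 (-0.75 to 0.87), and Agtr1a did not pass the filter on low counts. The interval for Ace includes both 0 and the value of 0.72 from the kept libraries.

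In whole tumors, 0 of 13683 genes were called between treatments by edgeR or DESeq2, with 180 and 220 genes at an unadjusted p under 0.05. Anpep had the difference farthest from 0 relative to its error, -0.41 (95% interval -0.82 to 0.00, unadjusted p = 0.0480, adjusted p = 1.00 from edgeR), from 157 ± 25.2 CPM with control IgG to 119 ± 26.4 CPM with 6-3-A6 (SD, n = 5 each). Agtr1a (-0.47), Enpep (-0.17), Agt (0.12), Ace (0.04), Mme (0.03) and Lnpep (0.00) had intervals that included 0. The interaction of treatment and fraction called 0 of 14488 genes by edgeR or DESeq2, with 125 and 162 genes at an unadjusted p under 0.05.

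**Figure D5:**
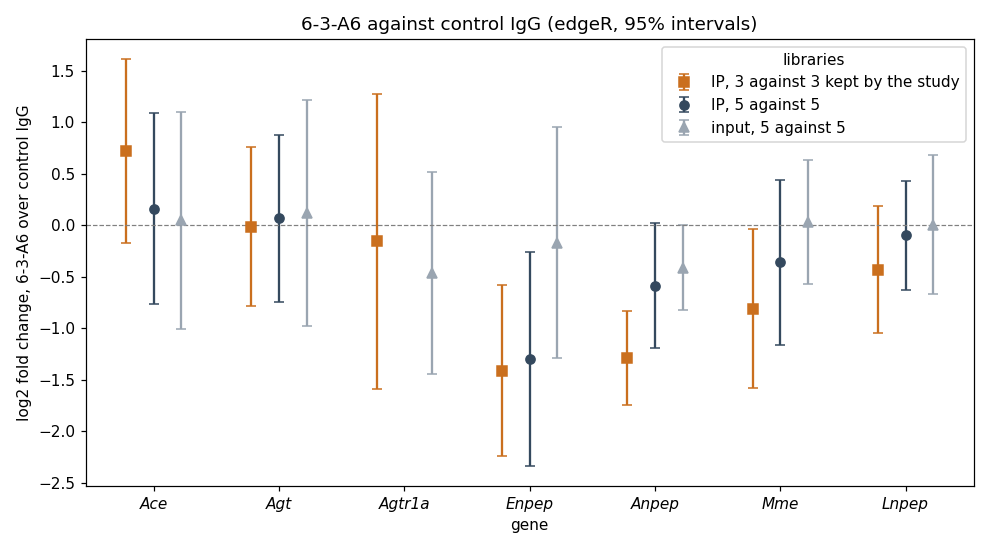
Log2 fold change of 6-3-A6 over control IgG with 95% intervals from edgeR for the 7 genes in the 6 kept IP libraries (orange), all 10 IP libraries (dark) and 10 input libraries (grey). Anpep moved from -1.29 in the kept libraries to -0.59 in all IP libraries, whereas Enpep was at -1.41 and -1.30. Agtr1a did not pass the filter over all IP libraries.

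The genes whose log2 CPM followed each member most closely over the 20 libraries were found by Pearson's r, which is a description here, since the libraries share tumors, fraction and depth. Ace was closest to Scarb1 (r = 0.962), Gja4 (0.952) and Adgra2 (0.952), of which Gja4 encodes a connexin of arterial endothelium. Enpep was closest to Cd163 (r = 0.877), A230006K03Rik (0.814) and Vsig4 (0.812), where Cd163 and Vsig4 are receptors of resident macrophages. Anpep was closest to Itgb2 (r = 0.927), the common chain of leukocyte integrins, and then to Pilra (0.909) and Loxl3 (0.902).

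Mme was closest to Adgrg6 (r = 0.926), D630045J12Rik (0.922) and Met (0.919), the receptor of hepatocyte growth factor. Agt was closest to Gdpd2 (r = 0.887), Adam8 (0.865) and Sgsh (0.861), and Lnpep to Atp11b (0.908), Sowahc (0.888) and Tsga10 (0.885). For Agtr1a, with few counts, the highest r was 0.696 (Gm43379). Ranked by Spearman's rho, 8 of the 21 genes so chosen were again among the closest.

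Within the 10 IP libraries the closest genes were others. Ace was closest to the peptidase gene Ece1 (r = 0.949), Gm16897 (0.945) and Igfbp7 (0.938), and Anpep to Cx3cl1 (0.963), Golim4 (0.962) and Plxnb2 (0.961). Enpep had A230006K03Rik (0.894) and Cd163 (0.870) in common with the ranking over all libraries. By Spearman's rho, 7 of 21 were again among the closest.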

How the data were processed

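Input and IP libraries of 10 tumors were analysed. The authors aligned reads with STAR 2.7.4a and counted them with featureCounts (submitters' processing notes name versions 2.0.1 and 1.5.2), and the deposited table holds raw counts per gene. The methods name mm10, but the coordinates in the table are those of GRCm39. The length of each gene with 1 interval equals its whole span (55789 of 55789), so introns were counted, and genes lying wholly within another gene had 0 counts on either strand (6333 of 6333 and 6254 of 6254), so reads in overlaps were not counted and strand was not used. The authors also deposited a table of their own comparison, whose fold changes and p-values were not used. Its normalized values (signal, counts divided by size factors by the authors) served only to identify the 6 kept IP libraries. There were 0 columns of other samples.

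Counts were tested with edgeR 4.0.16 (TMM scaling, genes filtered by filterByExpr, quasi-likelihood F test, p-values adjusted by Benjamini-Hochberg with a threshold of 0.05) in R 4.3.3. IP against input had treatment as a term, values per treatment and the interaction used 4 group means, and treatment was compared within each fraction. DESeq2 1.42.0 gave size factors and a Wald test as alternatives. Other alternatives were no filter on low counts, the tumor as a block, the kept tumors, and each library left out in turn. Log2 CPM used a prior count of 2. Levels per kilobase used GENCODE M21 exonic bases outside other genes, while counts include introns. The fits were tested on simulated counts with known changes. Permutation tests used scipy 1.17.1.

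By the extraction protocol, the input and IP libraries of a number come from the same tumor. Their deviations from group means correlated at 0.0464 to 0.699 in control IgG and -0.0777 to 0.513 in 6-3-A6 tumors. Whether samples of a group were handled in batches is not given in the sources used here, and each tumor was taken as a separate animal. The members, the lists and the tests were chosen with earlier results of these data known. Named genes are the 7 members, called genes of the wider lists and, by Pearson's r, the 3 tested genes most like each member. Genes of the wider lists that were not called were named after their values were seen. A gene of the wider lists is not reported here.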

Additional observations from a re-analysis of the deposited data

Results flagged for a closer look

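In 6-3-A6 input library 4, Enpep was at 3.67 CPM (35 counts), against 0.401 to 1.08 CPM in the other 4 libraries of the group. Its gap to the nearest library was 0.794 of the range of the group, above Dixon's critical value of 0.71 for 5 samples. Of 30 groups tested 1 was so far apart, and chance alone gives about 1 in 20. The same library had the highest mitochondrial share (38.2% of counts) and the lowest Ace (3 counts), and Enpep in the IP library of the same tumor was at 0.737 CPM. Without this library the log2 difference of Enpep between treatments in input was -0.90 instead of -0.17, and that between IP and input was -0.13 instead of -0.52. The part of RNA quality in these values was not tested.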

How the results depend on the processing

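Counts of genes and members called kept to within 1.5 times under most alternatives. The genes called between IP and input fell from 5856 to 3416 in the tumors of the kept libraries. For control IgG tumors 1647 genes became 3249 with the replicate block, 607 in the kept tumors and 3273 without the libraries that stand apart (an alternative chosen after seeing the data), and the members called, 1 of 7, became 4 with the block and 0 in the kept tumors. In the kept IP libraries 646 genes became 1459 without the filter on low counts and 1251 with DESeq2, and the members called became 3 and 2. The cause was not tested. Leaving out libraries in turn gave 1088 to 2385 genes and 0 to 1 members in control IgG tumors, 2865 to 4227 genes and 1 to 3 members in 6-3-A6 tumors (both lowest without 6-3-A6 IP library 4), and 9 to 653 genes and 0 to 1 members in the kept libraries.

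Differences that changed sign were small and not called. They were, in control IgG tumors, Enpep with the block (-0.16) and Lnpep with the block (0.0060) and without the libraries that stand apart (0.0050), in 6-3-A6 tumors Agtr1a without those libraries (0.020), in the kept libraries Agt with DESeq2 size factors (0.0043), in input Ace with the block (-0.21) and Lnpep without the filter (-0.023), and in the interaction Ace without the libraries that stand apart (-0.090) and Agt with the block (0.0021). Ace relative to the markers changed sign with Pecam1 (0.12) and Cdh5 (0.082).

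With single libraries left out, signs also changed for Enpep (-0.28 to 0.24) and Lnpep (-0.22 to 0.17) in control IgG tumors, Agtr1a (-0.62 to 0.026) in 6-3-A6 tumors, and Agt (-0.30 to 0.31) and Agtr1a (-0.90 to 0.26) between kept libraries. Over all IP libraries they changed for Ace (-0.21 to 0.39), Agt (-0.17 to 0.23) and Lnpep (-0.23 to 0.054). In input they changed for Ace (-0.24 to 0.32), Agt (-0.11 to 0.53), Enpep (-0.90 to 0.052), Mme (-0.13 to 0.17) and Lnpep (-0.15 to 0.24), and in the interaction for Ace (-0.27 to 0.40), Agt (-0.47 to 0.18) and Lnpep (-0.34 to 0.054). Ace relative to the markers ranged from -0.18 to 0.15. Of the other members' values, 666 with a library left out and 228 under other alternatives kept their sign and their side of the threshold.

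Samples of the 2 treatments share only a number. Their deviations correlated at -0.191 to 0.366 in IP and -0.326 to 0.242 in input, and 1 of 5 IP and 0 of 5 input samples correlated best with their own number. The block over these numbers called 0 genes in either fraction by edgeR, with 228 genes in IP and 99 in input at an unadjusted p under 0.05, and gave an exact permutation p of 1.00 for Ace relative to the markers. In the kept libraries no block could be fitted, since the groups share number 4 alone. The depth limits Agtr1a (5 to 19 counts per library) and Enpep (5 to 56), and 33.7% of the exonic bases of Ace in GENCODE M21 lay outside other genes.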

Other observations

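Within the 10 input libraries, the genes closest to each member by Pearson's r were mostly others than in IP. Enpep was again near Cd163 (r = 0.932, and 0.868 without 6-3-A6 input library 4), the receptor for haptoglobin-hemoglobin on macrophages, behind Pld5 (0.934) and Slc35f2 (0.933). Mme was again near Met (0.968, and 0.971 without that library), next to Cacul1 (0.968). Agtr1a was closest to Marco (0.935), a scavenger receptor of macrophages, at 5 to 19 counts per library. Ace was closest to Smpd2 (0.997, and 0.982 without that library), B3gnt8 (0.987, and 0.897 without it) and Mapkapk2 (0.986, and 0.899 without it). That library held 3 counts of Ace, and no ranking without it was made. Lnpep was closest to Tbc1d23 (0.978), Snx13 (0.975) and Smg1 (0.964). By Spearman's rho, 10 of the 21 genes chosen in input were again among the closest. These correlations are descriptions over libraries that share depth and RNA quality.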
